A study of Mus musculus with 8 samples.

Results

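Bone morphogenetic protein (BMP) signalling was followed through 10 of its genes in wild type and *Pcgf5*-/- mouse embryonic stem cells (mESCs), before neural differentiation (day 0) and at its day 6. The 10 genes were taken by name from the 24849 gene rows of the expression tables: the ligand genes *Bmp2*, *Bmp4* and *Bmp7*, the antagonist genes *Nog*, *Chrd* and *Fst*, and the inhibitor of differentiation genes *Id1*, *Id2*, *Id3* and *Id4*. *Pcgf5* encodes a subunit of a variant Polycomb repressive complex 1. Polyadenylated RNA was sequenced from 8 samples of the MPI-II mESC line, strain 129S2/SvPas, with 2 samples in each of 4 conditions: wild type and *Pcgf5*-/- cells kept on feeders with LIF, serum and the 2i inhibitors (day 0), and both genotypes after 6 days in N2B27 medium (day 6). The knockout was made with TALENs against the second exon, followed by drug selection and picking of single colonies. Both genotypes share the line and the culture, and the labels do not say how many *Pcgf5*-/- clones were sequenced or whether the 2 samples of a condition came from separate cultures, so p-values measure only the spread between these samples.

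BMP ligands are secreted dimers that bind paired type I and type II receptor kinases. The receptors phosphorylate SMAD1, SMAD5 and SMAD9, which join SMAD4 in the nucleus, and the ID genes are among their most direct targets. Noggin, chordin and follistatin bind ligands outside the cell and keep them from the receptors, follistatin with a preference for activins. ID proteins hold E proteins such as TCF3, TCF4 and TCF12 in dimers that cannot bind DNA and so restrain proneural factors. BMP signals, through ID proteins, are known to sustain mESC self-renewal together with LIF and to oppose entry into the neural lineage, while ID proteins are also made by neural progenitors that have not yet left the cell cycle.

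The expression unit was FPKM (fragments scaled by the length of a gene's exons and by the fragments mapped in the sample), which allows levels of different genes to be set side by side. The *Pcgf5* transcript served as a check of the labels. It measured 5.18 and 3.63 FPKM in the wild type and 1.28 and 1.84 FPKM in the *Pcgf5*-/- samples at day 0, and 9.16 and 5.06 FPKM against 0.669 and 0.457 FPKM at day 6. The knockout samples were the lower at both days, with a log2 fold change of -2.33 (adjusted p = 0.00421) at day 6 and -1.07 (adjusted p = 0.105) at day 0. The relative depth of the samples, traced from their low FPKM values, ran from 0.992 to 1.29 times that of the first wild type sample of day 0. Of 12 naive pluripotency markers 12 were above 1 FPKM in every day 0 sample, and of 12 neural progenitor markers 12 were above 1 FPKM in both wild type samples of day 6. A pair of samples stood apart from their partners. *Pcgf5*-/- replicate 2 of day 0 had a summed level of 12 feeder fibroblast markers of 618 FPKM, against 190 to 307 FPKM in the other day 0 samples. Wild type replicate 1 of day 6 had a summed level of 8 primitive and visceral endoderm markers of 32.7 FPKM, against 2.33 FPKM in its partner and 2.37 to 8.78 FPKM in the *Pcgf5*-/- samples, and its 12 naive markers summed to 194 FPKM against 83.7 FPKM in its partner. The part of these differences in the results was not tested. Results are also given without both of these samples, and in bulk RNA fewer cells of a type and less RNA per cell cannot be told apart.

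The stretch upstream of the transcription start was available from RefSeq (build GRCm38.p6) for 5 of the 10 genes: *Bmp4*, *Chrd*, *Id2*, *Id3* and *Id4*. The 250 bases before the start are shown for the 3 ID genes among them, since these genes moved together at day 6. They lie at chr12:25096093-25096342 (*Id2*, minus strand), chr4:136143572-136143821 (*Id3*, plus strand) and chr13:48260866-48261115 (*Id4*, plus strand), and are written 5′ to 3′ along the gene. Capitals mark GGCGCC, a core of the GC-rich element that BMP SMADs bind, and GTCT or its reverse complement AGAC, the short SMAD-binding element.
Id2: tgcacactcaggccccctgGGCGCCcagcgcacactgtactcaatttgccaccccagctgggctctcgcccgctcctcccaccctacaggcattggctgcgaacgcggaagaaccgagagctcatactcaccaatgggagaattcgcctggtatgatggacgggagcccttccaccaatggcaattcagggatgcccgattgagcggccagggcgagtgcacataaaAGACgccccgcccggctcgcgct
Id3: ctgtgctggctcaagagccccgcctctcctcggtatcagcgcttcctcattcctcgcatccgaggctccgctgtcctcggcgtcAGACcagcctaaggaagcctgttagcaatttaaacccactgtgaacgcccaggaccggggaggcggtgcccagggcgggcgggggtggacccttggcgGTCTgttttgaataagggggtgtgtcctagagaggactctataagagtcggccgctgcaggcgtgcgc
Id4: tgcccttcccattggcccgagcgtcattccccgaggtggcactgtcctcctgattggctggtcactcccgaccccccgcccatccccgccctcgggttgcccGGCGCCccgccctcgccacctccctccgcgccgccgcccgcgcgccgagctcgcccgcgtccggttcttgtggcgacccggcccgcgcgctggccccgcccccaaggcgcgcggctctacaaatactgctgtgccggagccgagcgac
GGCGCC occurred once in the *Id2* and once in the *Id4* stretch and was not found in that of *Id3*, while 9.59% of the 32851 promoters in the table hold it in this window. GTCT on either strand occurred 1 time for *Id2* and 2 times for *Id3* and was not found for *Id4*. So short a motif was present in 82.9% of all promoters. The motifs do not overlap one another in these stretches, and a match describes letters, not binding. Of the stretches not shown, that of *Chrd* held GGCGCC 1 time and AGAC 1 time. That of *Bmp4* held AGAC 1 time and no GGCGCC.

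**Figure D1:**
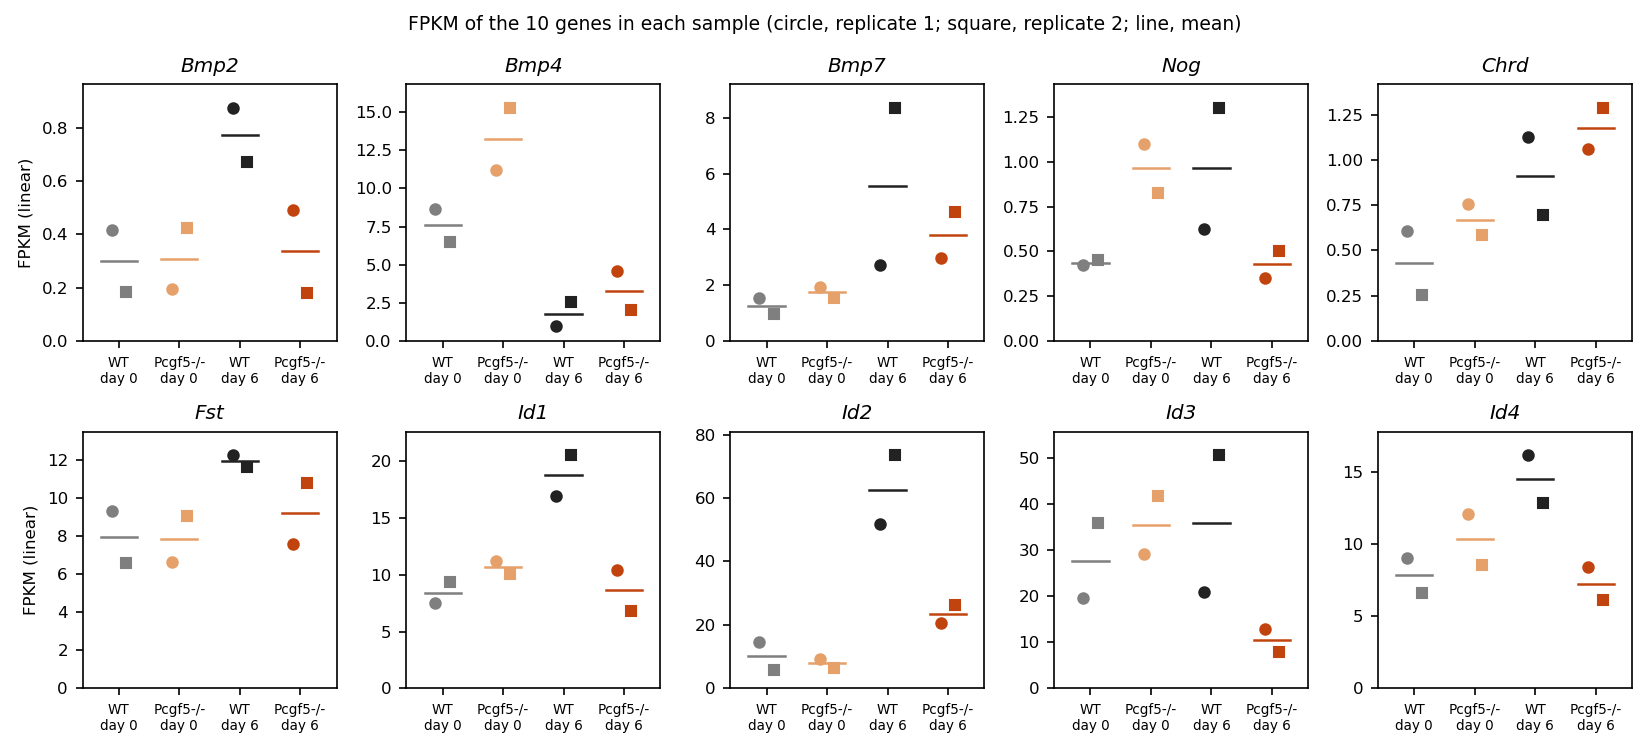
FPKM (linear axis from 0, a scale for each gene) of the 10 genes in wild type (WT) and *Pcgf5*-/- samples at day 0 and day 6; circles are replicate 1, squares replicate 2 and lines the mean of the 2 samples. *Id1*, *Id2*, *Id3* and *Id4* lay lower in both *Pcgf5*-/- samples than in both wild type samples at day 6, while the *Bmp4*, *Bmp7* and *Chrd* samples of the genotypes overlapped.

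At day 6 the 4 ID genes were lower in *Pcgf5*-/- cells than in the wild type, and the other 4 genes that could be tested did not pass. Tests used limma on log2(FPKM + 1), over 13214 genes whose mean was above 1 FPKM in at least 1 condition, and a call is an adjusted p under 0.05. *Bmp2* and *Nog* lay under that minimum in every condition, so 8 of the 10 genes were tested. Of all genes tested, 16.6% were called at day 6 and 7.05% were called lower. Of the 8, 4 were called, each lower in *Pcgf5*-/- cells.

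*Id1* measured 16.98 and 20.5 FPKM in the wild type at day 6, and 10.5 and 6.78 FPKM without *Pcgf5*. Both knockout samples lay under both wild type samples, a ratio of means of 2.18, and the log2 fold change was -1.06 ± 0.22 (SE, n = 2 per condition, adjusted p = 0.0174). *Id2*, the most abundant ID transcript of the wild type at this day, measured 51.8 and 73.5 FPKM against 20.6 and 26.2 FPKM in the *Pcgf5*-/- samples. The groups did not overlap and differed 2.68-fold, with a log2 fold change of -1.37 ± 0.37 (SE, adjusted p = 0.0389). *Id3* measured 21.0 and 50.6 FPKM in the wild type, a wide gap between partners, and 12.9 and 7.92 FPKM in *Pcgf5*-/- cells. Its groups did not overlap either, and the log2 fold change of -1.60 ± 0.44 (SE, adjusted p = 0.0409) was the most negative among the 8 genes. *Id4* measured 16.1 and 12.8 FPKM against 8.38 and 6.11 FPKM, again without overlap, with a log2 fold change of -0.92 ± 0.24 (SE, adjusted p = 0.0367). Among the 13214 genes, 88 had a more negative log2 fold change than *Id3*, 168 than *Id2*, 414 than *Id1* and 611 than *Id4*.

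With 2 samples per condition these calls turned on single samples, although the direction did not. All 4 log2 fold changes stayed below 0 in each of the 20 alternative settings. The *Id1* call was lost without wild type replicate 2 of day 6 (log2 fold change -0.93, adjusted p = 0.111) and without *Pcgf5*-/- replicate 2 (-0.78, adjusted p = 0.0758). *Id2* lost its call without any 1 of the 4 day 6 samples, with log2 fold changes of -1.62 and -1.12 without wild type replicates 1 and 2 and of -1.21 and -1.54 without *Pcgf5*-/- replicates 1 and 2 (adjusted p = 0.0713, 0.201, 0.182 and 0.0967). *Id4* lost its call in the same 4 settings, at -0.76 and -1.07 without the wild type replicates and -1.12 and -0.72 without the *Pcgf5*-/- replicates (adjusted p = 0.168, 0.0969, 0.0796 and 0.166). The *Id3* call was lost without wild type replicate 2 (-0.98, adjusted p = 0.210) and without *Pcgf5*-/- replicates 1 (-1.92, adjusted p = 0.0948) and 2 (-1.28, adjusted p = 0.185). Leaving out *Pcgf5*-/- replicate 1 or 2 of day 0, which enters only the estimate of the spread, brought *Id2* to adjusted p = 0.0513 either way and *Id3* to 0.0547 and 0.0551. Without both samples that stood apart, *Id3* kept its call (-2.21, adjusted p = 0.0308), while *Id1* (-1.19, adjusted p = 0.0655), *Id2* (-1.62, adjusted p = 0.0840) and *Id4* (-0.76, adjusted p = 0.169) did not. Without the filter on low values *Id2*, *Id3* and *Id4* did not pass (adjusted p = 0.0992, 0.107 and 0.0776). *Id2* also missed with a pseudocount of 0.01 (adjusted p = 0.0535), *Id3* without the variance trend (adjusted p = 0.0511), and *Id3* and *Id4* in a fit of only the compared groups (adjusted p = 0.0747 and 0.0534).

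The ID genes together give the size of the shift. The summed FPKM of *Id1* to *Id4* was 50.5 and 57.6 in the wild type and 61.8 and 66.9 in *Pcgf5*-/- mESCs at day 0. By day 6 it was 106 and 158 in the wild type and 52.3 and 47.0 in *Pcgf5*-/- cells. The wild type mean was thus 2.43 times its own day 0 level, the knockout mean was 0.771 times its own, and the wild type exceeded the knockout 2.65-fold at day 6. The make-up of the sum changed in both genotypes. *Id2* held 28.7% and 10.04% of the ID sum in the wild type before differentiation, 48.9% and 46.7% after it, and 15.0% and 9.80% in the *Pcgf5*-/- samples of day 0 and 39.4% and 55.7% at day 6. *Id3* held the largest share in all 4 day 0 samples, 38.6% to 62.3%, and 16.9% to 32.1% at day 6.

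**Figure D2:**
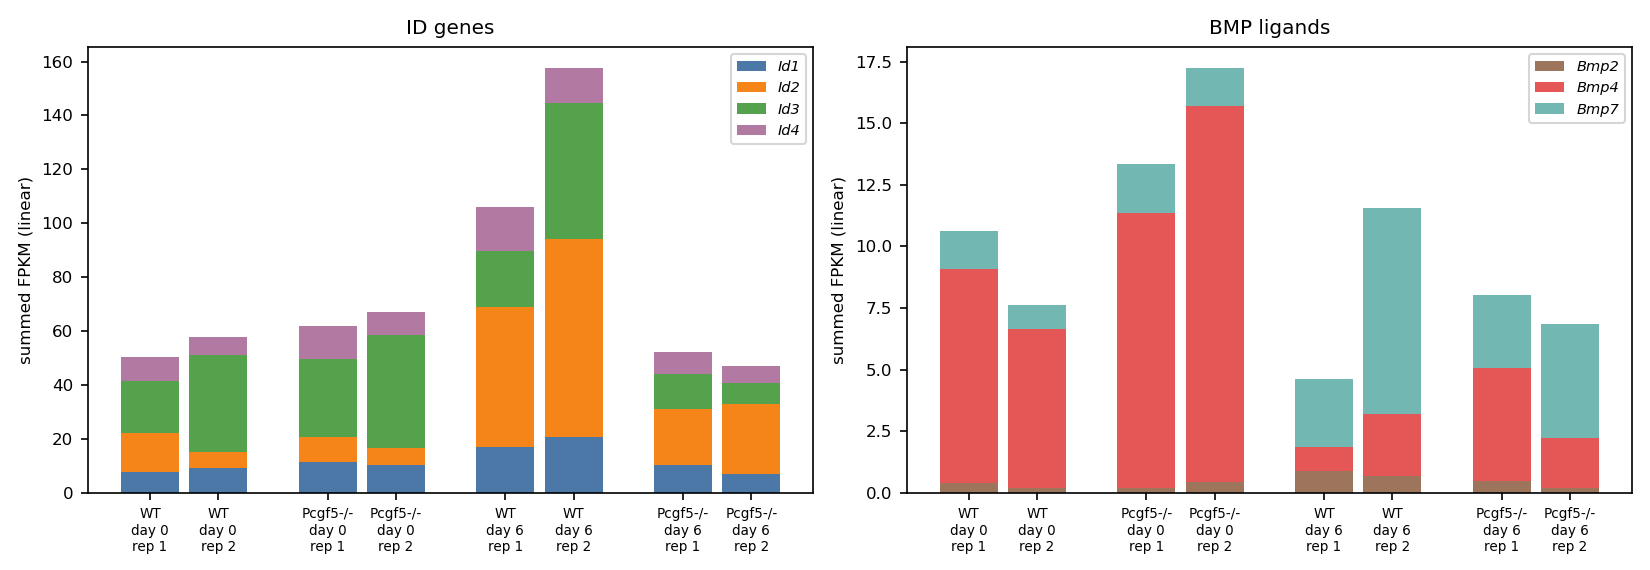
Summed FPKM (linear axes from 0) of the 4 ID genes (left) and of the 3 BMP ligand genes (right) in each of the 8 samples, stacked by gene, with WT for the wild type and rep for replicate. The ID sum was 106 and 158 FPKM in the wild type samples of day 6 and 46.97 to 66.9 FPKM in the *Pcgf5*-/- samples of both days, and *Bmp4* made up most of the ligand sum in the 4 day 0 samples.

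Among the ligands, *Bmp4*, the most abundant of the 3 ligand transcripts at day 0, measured 1.00 and 2.53 FPKM in the wild type at day 6, and 4.57 and 2.05 FPKM in the knockout samples. The knockout values bracketed the higher wild type value, so the groups overlapped. Its log2 fold change of 0.63 (adjusted p = 0.268) had a 95% interval from -0.20 to 1.46, which includes 0. Without wild type replicate 1 of day 6 it was 0.22. *Bmp7*, which encodes a ligand often paired with BMP2 or BMP4, measured 2.74 and 8.35 FPKM in the wild type and 2.98 and 4.62 FPKM in the *Pcgf5*-/- samples. Both knockout values fell between the wild type values, and the log2 fold change of -0.32 (95% interval -1.24 to 0.60, adjusted p = 0.621) turned to 0.34 without wild type replicate 2. *Bmp2* stayed under 1 FPKM in all samples, at 0.875 and 0.670 FPKM in the wild type and 0.493 and 0.179 FPKM in the knockout at day 6. These groups did not overlap, but the gene was below the minimum for the test. Fitted without that minimum, its log2 fold change was -0.42 (adjusted p = 0.166).

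None of the antagonists was called at day 6. *Fst*, the most abundant of the 3, measured 12.2 and 11.6 FPKM in the wild type and 7.59 and 10.8 FPKM in the *Pcgf5*-/- samples. The knockout samples lay lower without overlap, and the log2 fold change was -0.36 (95% interval -0.90 to 0.18, adjusted p = 0.329). *Chrd*, the gene of chordin, measured 1.12 and 0.70 FPKM against 1.06 and 1.29 FPKM, with overlapping samples and a log2 fold change of 0.19 (95% interval -0.28 to 0.66, adjusted p = 0.555). Its mean was above 1 FPKM only in the *Pcgf5*-/- samples of day 6 (1.17 FPKM), the group that brought it into the tests. *Nog*, the gene of noggin, measured 0.625 and 1.30 FPKM in the wild type and 0.351 and 0.503 FPKM in the knockout. The knockout samples were lower without overlap, and without the FPKM minimum the log2 fold change was -0.44 (adjusted p = 0.186). Samples of the genotypes lay fully apart, with *Pcgf5*-/- lower, for 5 of the 8 tested genes (*Fst* and the 4 ID genes), and for 28.8% of all genes tested.

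**Figure D3:**
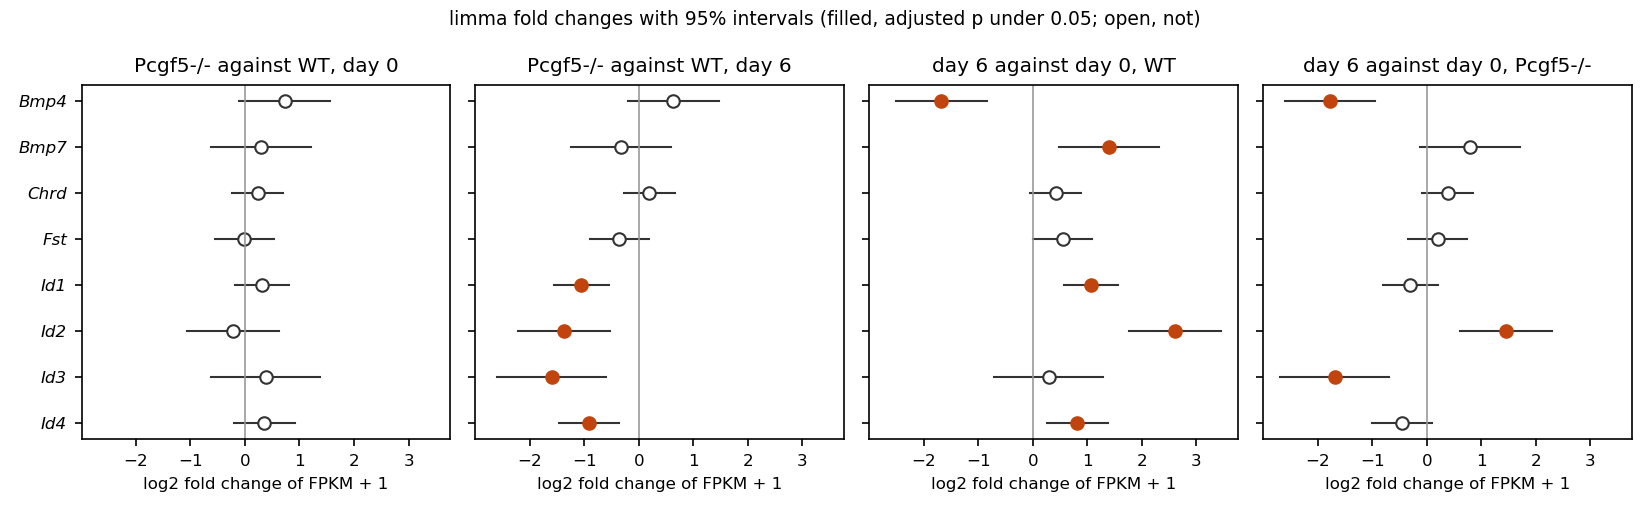
limma log2 fold changes of FPKM + 1 (horizontal axes) with 95% intervals (lines) for the 8 tested genes in 4 comparisons, from left to right the genotypes at day 0, the genotypes at day 6, the days in the wild type (WT) and the days in *Pcgf5*-/- cells; filled points passed an adjusted p of 0.05. The 4 ID genes passed below 0 at day 6, no gene passed at day 0, and *Bmp4* fell between the days in both genotypes.

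In undifferentiated mESCs at day 0, none of the 8 genes passed the limma test after adjustment, where 0.333% of all genes tested did. At an unadjusted p under 0.05 the count was 0 of 8, against 17.4% of all genes tested. *Bmp4* measured 8.66 and 6.48 FPKM in the wild type and 11.2 and 15.3 FPKM in the *Pcgf5*-/- samples. Both knockout samples lay above both wild type samples, with a log2 fold change of 0.73 (95% interval -0.10 to 1.56, adjusted p = 0.349). The higher of them was the sample with the high feeder markers, and without it the log2 fold change was 0.52. The *Bmp4* locus is overlapped on the opposite strand by *Gm15217* and *Gm15222*, and whether fragments were counted by strand is not given in the sources used here. *Bmp7* (1.53 and 0.971 FPKM against 1.95 and 1.54 FPKM) and *Id1* (7.52 and 9.35 FPKM against 11.2 and 10.1 FPKM) also lay higher in *Pcgf5*-/- cells without overlap. Their log2 fold changes were 0.29 and 0.31. With *Bmp4* these were 3 of 8 genes lying apart on the higher side, where 34.6% of all genes tested did, and the median of all genes was itself shifted by 0.11 on the log2 scale at this day.

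The other ID genes overlapped between the genotypes at day 0. *Id3* measured 19.5 and 35.9 FPKM in the wild type and 29.2 and 41.7 FPKM in the knockout, *Id4* 9.03 and 6.60 FPKM against 12.1 and 8.56 FPKM. *Id2* measured 14.5 and 5.79 FPKM against 9.30 and 6.56 FPKM, and its log2 fold change of -0.22 became 0.38 without wild type replicate 1. *Fst* overlapped too, at 9.30 and 6.55 FPKM against 6.61 and 9.04 FPKM, with an interval of the log2 fold change from -0.55 to 0.53. The higher *Fst* sample of each genotype also had the higher feeder marker sum. These sums were 307 against 190 FPKM in the wild type and 618 against 193 FPKM in the knockout. The part of feeder cells in the *Fst* level was not tested. *Chrd* stayed under 1 FPKM in the 4 samples, at 0.605 and 0.256 FPKM against 0.754 and 0.586 FPKM, and part of its locus lies opposite *Thpo*. *Bmp2* measured 0.415 and 0.184 FPKM against 0.194 and 0.425 FPKM. *Nog* measured 0.422 and 0.454 FPKM in the wild type and 1.098 and 0.827 FPKM in the *Pcgf5*-/- samples, higher without overlap (log2 fold change 0.45, adjusted p = 0.341 without the FPKM minimum). *Nog* lies on chromosome 11, whose 1086 tested genes had a median genotype difference of 0.48 (log2) before differentiation and 0.38 after. The part of this chromosome-wide shift in its values was not tested.

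The course from day 0 to day 6 was followed within each genotype, using the same samples as above, so that each day 6 group enters a genotype and a day comparison. In the wild type, 5 of 8 genes were called, 4 higher and 1 lower at day 6, where 50.5% of all genes tested were called and 34.2% were called higher (24.6% under quantile normalization). The median of all genes was shifted by 0.22 on the log2 scale between these days, and by 0.13 in *Pcgf5*-/- cells. *Bmp4* dropped 4.29-fold in mean FPKM, with both day 6 samples under both day 0 samples (log2 fold change -1.68 ± 0.36, SE, adjusted p = 0.00552). *Bmp7* rose 4.43-fold (log2 fold change 1.40 ± 0.40, SE, adjusted p = 0.0190), a call that was lost without wild type replicate 2 of day 0 (1.22, adjusted p = 0.100) or of day 6 (0.74, adjusted p = 0.0967), under quantile normalization (0.94, adjusted p = 0.0963) and without the filter on low values (adjusted p = 0.0582). The make-up of the ligand sum changed between the days. The sum was 10.6 and 7.63 FPKM at day 0 and 4.62 and 11.6 FPKM at day 6 in the wild type, with *Bmp4* at 81.6% and 84.9% of it at day 0 and 21.7% and 21.9% at day 6. *Bmp7* held 59.4% and 72.3% of the day 6 sum. The day 6 samples alone were 0.506 and 1.27 times the day 0 mean, so the direction of the sum rested on which was taken.

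*Id2* had the largest rise of the 8 genes in the wild type, 6.18-fold in mean FPKM, with a log2 fold change of 2.61 ± 0.37 (SE, adjusted p = 0.000680) that passed in all 19 alternative settings. *Id1* rose 2.22-fold (log2 fold change 1.07 ± 0.22, SE, adjusted p = 0.00436) and passed in all 19 as well. *Id4* rose 1.85-fold (0.82 ± 0.24, SE, adjusted p = 0.0217), but not without wild type replicate 2 of day 0 (0.62, adjusted p = 0.124) or replicate 1 of day 6 (0.66, adjusted p = 0.125), and not under quantile normalization (0.53, adjusted p = 0.114) or median ratio scaling (0.66, adjusted p = 0.0592). The *Id4* locus overlaps the antisense noncoding gene *A330033J07Rik*. *Id3* did not pass, at 0.29 (95% interval -0.71 to 1.29, adjusted p = 0.600), and its samples of the days overlapped. *Fst* (0.55, adjusted p = 0.0828) and *Chrd* (0.42, adjusted p = 0.120) lay higher at day 6 without overlap but did not pass. *Nog* and *Bmp2*, under the FPKM minimum, had mean levels 2.20 and 2.58 times those of day 0, with adjusted p = 0.117 and 0.0755 when the minimum was lifted.

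In *Pcgf5*-/- cells, 3 of 8 genes were called between the days, 1 higher and 2 lower, where 32.3% of all genes tested were called. *Bmp4* dropped 4.0-fold in mean FPKM (log2 fold change -1.77 ± 0.36, SE, adjusted p = 0.00818), with no overlap between the days. Without *Pcgf5*-/- replicate 2 of day 6 it was -1.34 (adjusted p = 0.0557). *Id2* rose 2.95-fold (1.46 ± 0.37, SE, adjusted p = 0.0188), a call lost without replicate 2 of day 0 (1.23, adjusted p = 0.0945) and without replicate 1 (1.62, adjusted p = 0.0557) or 2 (1.29, adjusted p = 0.105) of day 6. *Id3* fell 3.41-fold (-1.69 ± 0.44, SE, adjusted p = 0.0204), a call lost without replicates 1 (-1.94, adjusted p = 0.0515) and 2 (-1.44, adjusted p = 0.100) of day 0 and without replicate 2 of day 6 (-1.37, adjusted p = 0.122). Without the filter on low values neither *Id2* (adjusted p = 0.0583) nor *Id3* (adjusted p = 0.0640) passed. *Id1* (-0.30, 95% interval -0.81 to 0.20, adjusted p = 0.321) and *Id4* (-0.45, 95% interval -1.01 to 0.10, adjusted p = 0.183) did not pass. *Bmp7* was at 0.79 (adjusted p = 0.166), and *Bmp7* held 37.1% and 67.5% of the ligand sum at day 6, *Bmp4* 56.8% and 29.9%. This sum was 13.3 and 17.2 FPKM at day 0 and 8.04 and 6.85 FPKM at day 6, a ratio of means of 0.487, with no overlap. *Fst* (0.20) and *Chrd* (0.38) did not pass, and *Nog* had a mean 2.25-fold under that of day 0.

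The change of the genotype difference between the days was tested as an interaction. None of the 8 genes passed after adjustment, where 3.09% of all genes tested did, and 3 had an unadjusted p under 0.05, as did 23.2% of all genes tested. *Id1* had an interaction of -1.37 ± 0.31 (SE, unadjusted p = 0.00207, adjusted p = 0.0545), *Id4* of -1.27 ± 0.34 (SE, unadjusted p = 0.00545, adjusted p = 0.0788) and *Id3* of -1.98 ± 0.62 (SE, unadjusted p = 0.0118, adjusted p = 0.109). *Id2* was at -1.16 ± 0.52 (SE, adjusted p = 0.229) and *Bmp4* at -0.10 ± 0.51 (SE, adjusted p = 0.928). *Id1* passed among genes with a mean over 5 FPKM in a condition (adjusted p = 0.0490). In the fit of all 13214 genes, a change of the genotype difference between the days was thus not shown for these genes.

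Other genes of the pathway were read from lists chosen by function. Of 14 other BMP ligand genes, 2 were expressed enough to test. *Gdf3*, a ligand abundant in mESCs and counted with the BMP family although it acts on Nodal-type signals, measured 18.2 and 6.17 FPKM in the wild type at day 6, and 80.1 and 61.4 FPKM in the knockout samples. It lay higher in the knockout without overlap (log2 fold change 2.598 ± 0.39, SE, adjusted p = 0.00758). *Gdf3* lies on chromosome 6, where the median log2 fold change of 643 tested genes was 0.37 at day 6. *Bmp6* measured 2.30 and 2.45 FPKM against 1.62 and 0.787 FPKM and did not pass (-0.64, adjusted p = 0.0834).

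Of 11 tested receptor and co-receptor genes, 3 were called lower and 1 higher in *Pcgf5*-/- cells at day 6. Of all genes tested, 7.05% were called lower and 9.57% higher. The median log2 fold change of the list was -0.44, against 0.02 over all genes. *Bmpr1a*, a type I BMP receptor, measured 33.7 and 32.1 FPKM in the wild type and 24.7 and 22.5 FPKM in the knockout (-0.46, adjusted p = 0.0382). *Acvr2a*, a type II receptor for activins and BMPs, measured 15.3 and 12.8 FPKM against 7.87 and 6.53 FPKM (-0.87, adjusted p = 0.0168). *Rgma*, a membrane-anchored BMP co-receptor, measured 60.8 and 70.2 FPKM against 18.5 and 25.0 FPKM (-1.56, adjusted p = 0.00560). *Eng*, the co-receptor endoglin, moved the other way, at 3.61 and 1.55 FPKM in the wild type and 9.33 and 6.43 FPKM in the *Pcgf5*-/- samples (1.35, adjusted p = 0.0179). None of these 4 genes overlapped between the genotypes.

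At day 6, 7.05% of all genes tested were called lower, as were 2 of 5 tested SMAD genes of the BMP branch. These were *Smad5*, a receptor-activated SMAD (16.5 and 13.5 FPKM against 9.61 and 8.29 FPKM, log2 fold change -0.69, adjusted p = 0.0318), and *Smad4*, the common partner (35.4 and 31.5 FPKM against 25.5 and 21.2 FPKM, log2 fold change -0.50, adjusted p = 0.0478). *Smad1* did not pass (-0.72, adjusted p = 0.0646), nor did the inhibitory SMAD gene *Smad7* (0.76, adjusted p = 0.0577). The list of other BMP target genes shares genes with other lists, such as *Smad7* with the SMADs. Of its 12 tested genes, 2 were called, near the 16.6% of all genes tested. Both were lower. They were *Msx2*, a homeobox gene (2.91 and 2.49 FPKM against 1.12 and 0.817 FPKM, -0.91, adjusted p = 0.0308), and *Hey1*, a Notch and BMP target (6.30 and 5.25 FPKM against 2.80 and 2.20 FPKM, -0.95, adjusted p = 0.0350). The median of this target list was 0.01, close to that of all genes. Its genes lay on both sides of 0, such as *Hey1* at -0.95 and *Smad7* at 0.76. The 4 ID genes had log2 fold changes of -1.60 to -0.92.

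Of 11 tested genes for other antagonists and modulators, 0 were called at day 6 by limma and 3 had an unadjusted p under 0.05, as did 32.7% of all genes tested, with a median log2 fold change of -0.45. Of the 3 E protein genes, whose products ID proteins bind, 2 were called lower, against 7.05% of all genes tested. *Tcf12* measured 58.6 and 61.4 FPKM in the wild type and 26.0 and 24.6 FPKM in the *Pcgf5*-/- samples (-1.21, adjusted p = 0.00847), and *Tcf4* measured 30.5 and 33.2 FPKM against 15.6 and 20.3 FPKM (-0.81, adjusted p = 0.0248). *Tcf3*, at 50.5 and 65.0 FPKM against 37.3 and 42.7 FPKM, did not pass (-0.51, adjusted p = 0.0511). Of 3 tested genes for activins and related ligands that follistatin binds, *Gdf11* was called lower, at 11.4 and 7.51 FPKM against 4.81 and 3.23 FPKM (-1.05, adjusted p = 0.0433). These lists share some genes and together hold 44 distinct tested genes. Of the 44, limma called 12 at day 6, where 16.6% of all genes tested were called. It called 0 at day 0 (2 at an unadjusted p under 0.05, against 17.4% of all genes) and 0 for the interaction (21 at an unadjusted p under 0.05, against 23.2%).

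Between the days, 33 of the 44 genes were called in the wild type and 21 in *Pcgf5*-/- cells. Of all genes tested, 50.5% were called in the wild type, 34.2% higher and 16.2% lower. In *Pcgf5*-/- cells 32.3% were called, 21.9% higher and 10.4% lower. Of the 11 receptor and co-receptor genes, 8 rose and 2 fell in the wild type, and 5 rose and 0 fell in the knockout. *Rgma* had the largest rise of the list in both, with log2 fold changes of 4.17 (adjusted p = 7.41e-06) and 2.89 (adjusted p = 0.000127). The SMAD genes counted 3 higher and 1 lower in the wild type, and 2 higher and 1 lower in the knockout. *Smad7* was the gene that fell, by 1.68 and 0.94 on the log2 scale (adjusted p = 0.000613 and 0.0173). The 3 E protein genes all rose in the wild type, and 1 of them, *Tcf12*, passed in the knockout (1.43, adjusted p = 0.00139). Of the other antagonists and modulators, 3 rose and 3 fell in the wild type, while 0 rose and 3 fell in the knockout. *Grem1*, the gene of the BMP antagonist gremlin, had the largest fall of that list in both genotypes, by 2.89 and 2.73 on the log2 scale (adjusted p = 6.23e-05 and 0.000282). At day 0 *Grem1* was at 5.45 to 10.3 FPKM, and the summed feeder markers fell between the days as well, from 190 to 618 FPKM to 22.3 to 50.9 FPKM. The part of the feeder cells in this fall was not tested. Other BMP target genes counted 3 higher and 4 lower in the wild type and 2 higher and 5 lower in the knockout, other ligands 1 and 1 against 1 and 0, and the ligands bound by follistatin 1 and 2 in either genotype.

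**Figure D4:**
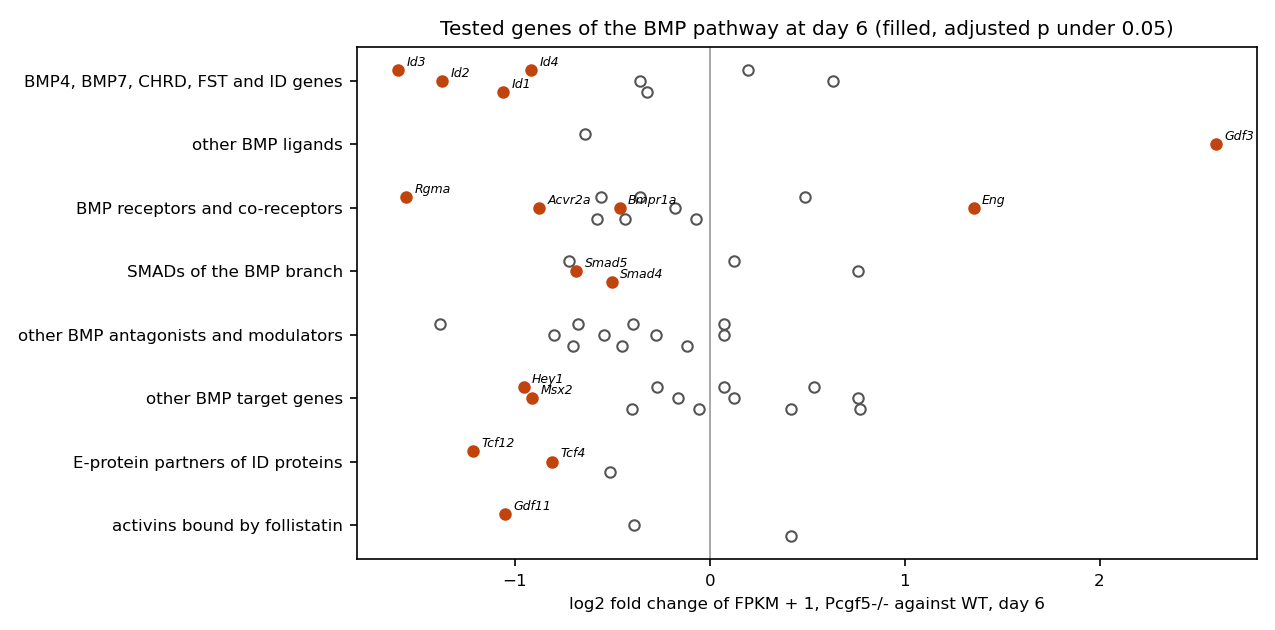
log2 fold change of FPKM + 1 between *Pcgf5*-/- and wild type (WT) cells at day 6 (horizontal axis) for each tested gene of the BMP pathway, in rows by function, with small vertical offsets only to part the points; filled points passed an adjusted p of 0.05 and carry the gene's name. The 4 ID genes lie between -1.60 and -0.92, *Gdf3* and *Eng* are the named points to the right of 0, and the row of other antagonists and modulators holds no filled point.

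Markers of some cell states also differed between the genotypes at day 6, not all in the direction of the ID genes. Of 12 naive pluripotency markers 11 were called higher in *Pcgf5*-/- cells, with a summed level of 83.7 and 194 FPKM in the wild type and 560 and 663 FPKM in the knockout. Of 12 neural progenitor markers 12 were called lower, with sums of 509 and 519 FPKM against 178 and 196 FPKM, and no marker of either list was listed at 0 at this day. Of 10 neuron markers 5 were called lower. Over all genes tested, 9.57% were called higher and 7.05% lower at this day. No feeder fibroblast marker of 12 was called by limma (2 had an unadjusted p under 0.05, against 32.7% of all genes), with sums of 34.8 and 50.9 FPKM against 22.3 and 25.0 FPKM. Of the other lists, 1 of 7 tested neural crest markers was called lower (*Pax3*, also a neural progenitor marker). Among 4 tested surface ectoderm markers, 1 was called higher. None of 4 tested mesendoderm or 5 tested primitive and visceral endoderm markers was called. The part of these markers' cells in the ID levels was not tested.

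The genes whose 8-sample profile lay nearest to a tested gene were found by the root mean square (RMS) difference of centred log2(FPKM + 1) among 13161 genes. For *Id2* they were *Gas1*, *Sox2ot* and *Rbmx*, at 0.25, 0.27 and 0.27. For *Id1* they were *Ccdc81*, *Kcnj4* and *Fam172a*, at 0.19 each. For *Id3* they were *Ror2*, *Fzd10* and *Grb10*, at 0.39, 0.44 and 0.46, and for *Id4* they were *Mmgt1*, *Sppl2a* and *Rnf24*, at 0.15, 0.16 and 0.17. *Bmp4* lay nearest to *Emp3*, *Tgfb1* and *Fam131c* (0.26, 0.27 and 0.28). *Fst* lay nearest to *Tvp23a*, *Gnai2* and *Usf2* (0.11, 0.12 and 0.13) and *Chrd* to *Cxxc5*, *Fopnl* and *5730508B09Rik* (0.066, 0.089 and 0.095). The genes' own spread over the 8 samples differed, with an SD of 0.28 for *Chrd* and 1.26 for *Id2*. These differences are therefore not on a common scale between genes. No ID gene was among the 3 nearest of another ID gene, but how far the ID genes varied together was not tested.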

How the data were processed

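Per their methods, the authors clipped adapters and poor-quality bases, discarded short, exactly duplicated and N-rich reads, aligned read pairs to mm9 with TopHat2 (2.0.4 in the submitters' processing notes) and computed FPKM with Cufflinks (2.1.1). The deposited FPKM values are scaled for length and library size, and the deposited confidence bounds were read only as a check. In both wild type samples of day 6 *Id2* lay above its upper bound (49.9 and 70.6 FPKM), as did *Id3* (20.2 and 47.7 FPKM). *Id3* also did so in wild type replicate 2 and both *Pcgf5*-/- samples of day 0. None of the genes followed lay outside its bounds in either *Pcgf5*-/- sample of day 6. Over all rows, 4.32% to 5.42% lay outside per sample. The part of this in the genotype differences was not tested. Removing exact duplicates can lower abundant transcripts. FPKM gives no counts, so no counting interval is given. The annotation is not given in the sources used here.

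Each sample was grouped by its label. Of 24849 rows, 13214 with a mean above 1 FPKM in at least 1 condition were analysed as log2(FPKM + 1), which understates changes of low genes. All 8 samples entered one limma 3.58.1 fit (R 4.3.3, mean-variance trend, no replicate block), with Benjamini-Hochberg adjustment over all genes tested and a threshold of 0.05. The fit was also run on simulated data with independent noise for each gene and sample, and the outcome is not reported here. Deviations shared between samples were not simulated. Replicate numbers were not used to pair samples. The genes and lists were chosen with earlier results of these data known. Genes named were the 10 genes, up to 4 called genes per list and comparison by size, *Pcgf5* and the 3 nearest profiles (those of *Bmp7* are not reported here), and pathway genes that missed the threshold were added after their values were seen. Between the days only the leading genes of some lists are named. Alternatives covered pseudocounts, filters, scaling, blocks, chromosome centring and samples left out, and leaving out both samples that stood apart was chosen after seeing the data. The *Bmp2*, *Bmp7*, *Nog*, *Fst* and *Id1* promoters were not analysed here.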

Additional observations from a re-analysis of the deposited data

Results flagged for a closer look

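*Nog* was singled out because its samples moved in opposite directions at the 2 days. Both *Pcgf5*-/- samples lay above both wild type samples at day 0 and below both at day 6, a difference between the days of -0.89 on the log2(FPKM + 1) scale. The difference was not tested among the 13214 genes, since *Nog* lay under the FPKM minimum, and a fit without the minimum gave an adjusted p of 0.152. Its values ran from 0.351 to 1.30 FPKM.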

How the results depend on the processing

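Without the filter on low values *Bmp2* and *Nog* entered as well, so the counts for that setting are of 10 genes. At day 6, 4 of the 8 tested genes were called. The count was 1 without the filter on low values, 2 in a fit of only the compared groups, 1 without both samples that stood apart, and 0 to 4 when 1 sample was left out. For the days in the wild type it was 5, and 3 under quantile normalization and 3 to 5 with 1 sample left out. For the days in *Pcgf5*-/- cells it was 3, and 1 without the filter and 0 to 4 with 1 sample left out. For the interaction it was 0, and 1 with a mean FPKM over 5. The lone sample left in a condition was assumed to vary like the others, and where no value is named the cause was not tested.

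Same-numbered samples had correlated deviations at day 6 (r = 0.39) and day 0 (r = 0.10), but not across days (-0.08 to -0.02). The numbers were not taken as pairs in the main fit, so any part shared within a day stayed in its spread. At day 6 all 4 ID genes were called lower with the replicate block and with a replicate block for each day. Of all genes, 2410 and 3235 were then called, against 2197. With the replicate block, or with a replicate block for each day, the interaction count was 1 (*Id4*), and *Id4* passed between the days in *Pcgf5*-/- cells (adjusted p = 0.0416 and 0.04996). With the block for each day *Id3* between the days in *Pcgf5*-/- cells (adjusted p = 0.0681) and *Bmp7* between the days in the wild type (adjusted p = 0.0587) did not pass.

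Directions turned only where the main value had not passed. Under quantile normalization *Fst* between the days in *Pcgf5*-/- cells was -0.0020 and the *Bmp4* interaction 0.067. The *Bmp4* interaction was 0.10 with a pseudocount of 0.1 and 0.13 with 0.01. Without both samples that stood apart, *Id2* at day 0 was 0.0069 and the *Chrd* interaction 0.051. With 1 sample left out, log2 fold changes ran from -0.98 to 0.34 (*Bmp7*, day 6), -0.24 to 0.21 (*Fst*, day 0), -0.81 to 0.38 (*Id2*, day 0), -0.039 to 0.81 (*Id3*, day 0), -0.32 to 0.91 (*Id3*, days in the wild type), -0.025 to 0.43 (*Fst*, days in *Pcgf5*-/- cells), and for interactions from -0.53 to 0.34 (*Bmp4*), -1.28 to 0.045 (*Bmp7*) and -0.22 to 0.14 (*Chrd*).

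Over all genes, 2197 were called at day 6 and 297 to 3235 over the alternatives, 44 and 0 to 282 at day 0, 4271 and 2367 to 4584 between the days in *Pcgf5*-/- cells, and 408 and 4 to 1167 for the interaction. Scaling moved the split of higher and lower calls. Between the days it was 4522 and 2146 in the wild type and 2898 and 1373 in *Pcgf5*-/- cells, against 3250 and 2977, and 2049 and 1696, under quantile normalization, and 3740 and 2923, and 2384 and 1731, under median ratio scaling. For the interaction it was 177 and 231, against 306 and 219 under quantile normalization, and at day 0 it was 38 and 6, against 0 and 3 under quantile normalization and 0 and 2 under median ratio scaling.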
